A study of Mus musculus with 10 samples.

Results

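The genes described here encode titin (Ttn) and proteins of the Z-disc, the thick filament and the M-band of the cardiac sarcomere. They were taken from the deposited gene table as the rows whose symbol is Ttn, Nebl, Actn2, Tcap, Ldb3, Myoz2, Mybpc3, Mybphl, Myom1 or Myom2. All 10 symbols were found among the 23337 genes of the table. All 10 also passed the filter on low counts that left 13084 genes for testing. Titin is a giant protein that spans from the Z-disc, where thin filaments of neighbouring sarcomeres are tied together, to the M-band, where thick filaments are cross-linked. It acts as a molecular spring and as a scaffold. In the Z-disc, alpha-actinin (Actn2) crosslinks actin and titin, and telethonin (Tcap) caps the end of titin. Nebulette (Nebl), LDB3 and myozenin 2 (Myoz2) bind there too. Myosin binding protein C (Mybpc3) and its smaller relative Mybphl associate with the thick filament, and the myomesins (Myom1 and Myom2) bridge thick filaments at the M-band. Variants in several of these genes are known in inherited cardiomyopathy, and Mybphl is known for its expression in atrial muscle.

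Right atrial RNA of 10 adult mice was sequenced, with 1 library per mouse. The 4 mice labelled control (M1, M2, F1 and F2; the letter is the labelled sex) were compared with the 6 labelled Tbx5 mutant (M1 to M3 and F1 to F3). The comparison asks which transcripts depend on Tbx5, a T-box transcription factor of the atrium. In the mutant mice exon 3 of floxed Tbx5 is removed by a tamoxifen-inducible Cre recombinase under the ubiquitous R26 promoter, so that the deletion is not limited to heart muscle. The study that describes this mouse model reports RNA-seq of left atria, with controls that carry the same R26 CreERt2 without the floxed gene. The labels of the right atrial mice compared here give the genotype only as control. One treatment text stands for all 10 mice: 0.167 mg of tamoxifen per day for 3 days by intraperitoneal injection, and death 1 week later. The strain is given as mix, and the age both as 8 to 10 weeks and as 6 to 8 weeks. Tissue was dissected as atrial appendage, a mixture of cell types, so that fewer muscle cells and less RNA per muscle cell cannot be told apart.

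Libraries held 5703775 to 7095141 counted reads. Tbx5 went against its label. As CPM (reads over the library total, scaled by TMM), it was at 205 ± 17.8 (SD, n = 4) in the control mice and at 393 ± 83.2 (SD, n = 6) in those labelled Tbx5 mutant. Its log2 fold change was 0.94 (SE 0.15, adjusted p = 0.000496), and counts over the whole gene do not separate transcripts with and without exon 3. All directions below are therefore relative to the labels. Ryr2, the calcium release channel gene that TBX5 is known to activate, was lower in every mutant mouse than in every control mouse. It went from 5319 ± 564 CPM (SD, n = 4) to 1698 ± 468 CPM (SD, n = 6), with a log2 fold change of -1.65 (adjusted p = 2.99e-05). The longest Ryr2 transcript has 16814 bases, and the groups also differ in a trend on transcript length, described below. The part of that trend in the fall of Ryr2 was not tested. In mutant M3, 38.9% of the reads came from Rn45s, the 45S ribosomal RNA precursor, against 0.268% to 1.49% in the other 9 libraries. Without mutant M3 the same number of members were called, 2 lower and 3 higher. Xist and the Y-linked Ddx3y went against the sex label in all 4 control mice, the males by label having 7850 and 10149 Xist reads and the females by label 5 and 14. In the mutant mice both genes went with the label. By these genes, each fit below on mice of a single labelled sex compares control and mutant mice of opposite sex. Such fits are therefore not comparisons within a sex. Each of the 21 pairs of libraries within a group differed by more than counting noise (chi-square per degree of freedom at least 3.78).

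RefSeq promoter sequences (GRCm38.p6) were found for 8 of the 10 genes, 12 promoters in all, with several starts for Nebl and Ldb3. Tcap and Myom2 had no entry. Below are the bases upstream of the start, read 5' to 3' on the strand of the gene, for the pair with the largest opposite differences (Mybpc3 and Mybphl), for Ttn and Myoz2, and for the Nebl start that holds a T-box motif. Capitals mark the motifs searched on both strands: AGGTGT, the core of the T-box motif, which reads ACACCT on the other strand, and the MEF2 element. They lie at chr2:91117894-91118143 (forward strand, Mybpc3), chr3:108364661-108364910 (forward, Mybphl), chr2:76982548-76982797 (reverse, Ttn), chr3:123034988-123035237 (reverse, Myoz2) and chr2:17526131-17526380 (reverse, Nebl).
Mybpc3: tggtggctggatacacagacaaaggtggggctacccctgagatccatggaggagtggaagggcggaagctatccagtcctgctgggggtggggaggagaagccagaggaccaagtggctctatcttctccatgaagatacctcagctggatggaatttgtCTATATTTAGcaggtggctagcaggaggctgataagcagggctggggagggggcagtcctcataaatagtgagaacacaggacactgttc
Mybphl: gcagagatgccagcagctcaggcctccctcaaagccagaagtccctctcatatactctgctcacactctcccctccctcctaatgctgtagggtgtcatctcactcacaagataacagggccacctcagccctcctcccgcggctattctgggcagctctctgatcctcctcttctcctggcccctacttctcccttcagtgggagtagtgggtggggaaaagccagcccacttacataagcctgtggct
Ttn: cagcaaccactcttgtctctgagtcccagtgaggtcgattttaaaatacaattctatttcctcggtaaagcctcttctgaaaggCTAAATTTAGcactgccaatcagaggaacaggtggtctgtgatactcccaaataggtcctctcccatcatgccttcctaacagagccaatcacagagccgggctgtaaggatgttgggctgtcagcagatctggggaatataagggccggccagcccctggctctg
Myoz2: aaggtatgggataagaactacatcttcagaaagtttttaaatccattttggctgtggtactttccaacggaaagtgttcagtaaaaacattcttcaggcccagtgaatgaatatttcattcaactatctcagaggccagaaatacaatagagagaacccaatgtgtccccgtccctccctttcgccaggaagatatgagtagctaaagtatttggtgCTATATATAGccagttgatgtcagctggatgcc
Nebl: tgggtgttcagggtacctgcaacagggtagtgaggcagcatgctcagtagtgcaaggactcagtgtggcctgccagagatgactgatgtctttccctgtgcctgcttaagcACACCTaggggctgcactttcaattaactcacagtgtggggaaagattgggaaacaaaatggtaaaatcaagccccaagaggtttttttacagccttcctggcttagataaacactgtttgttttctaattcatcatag

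The MEF2 element began at position -90 from the start in Mybpc3, at -166 in Ttn and at -33 in Myoz2. It was present in 3 of the 12 member promoters and in 3.19% of all 32851 promoters of the same length (300 bases, of which 250 lie before the start and 50 after it). AGGTGT was present in 1 of the 12 member promoters, at -139 of the Nebl start shown, and in 13.74% of all promoters. Mybphl held neither motif in this window. These are matches of letters and say nothing of whether a factor binds.

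Of the 10 genes, 5 were called, 2 lower (Mybphl and Nebl) and 3 higher (Mybpc3, Tcap and Myom2) in the mice labelled Tbx5 mutant. A gene was called when its adjusted p, from the edgeR quasi-likelihood fit over all tested genes with Benjamini-Hochberg adjustment, was under 0.05 and its fold change over 1.5. Among all 13084 tested genes 15.7% were called, 7.16% lower and 8.5% higher. By adjusted p alone, 8 members passed, 2 lower and 6 higher, against 31.3% of all tested genes, 15.0% lower and 16.3% higher. In 7 members the groups did not overlap, 6 with every mutant mouse above every control mouse and 1 with every mutant mouse below, whereas 22.7% of all tested genes did not overlap, 11.7% above and 11.0% below. The median log2 fold change was 0.37 over the members and -0.005 over all tested genes. Called genes of both directions were found among the Z-disc and among the thick filament proteins.

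**Figure D1:**
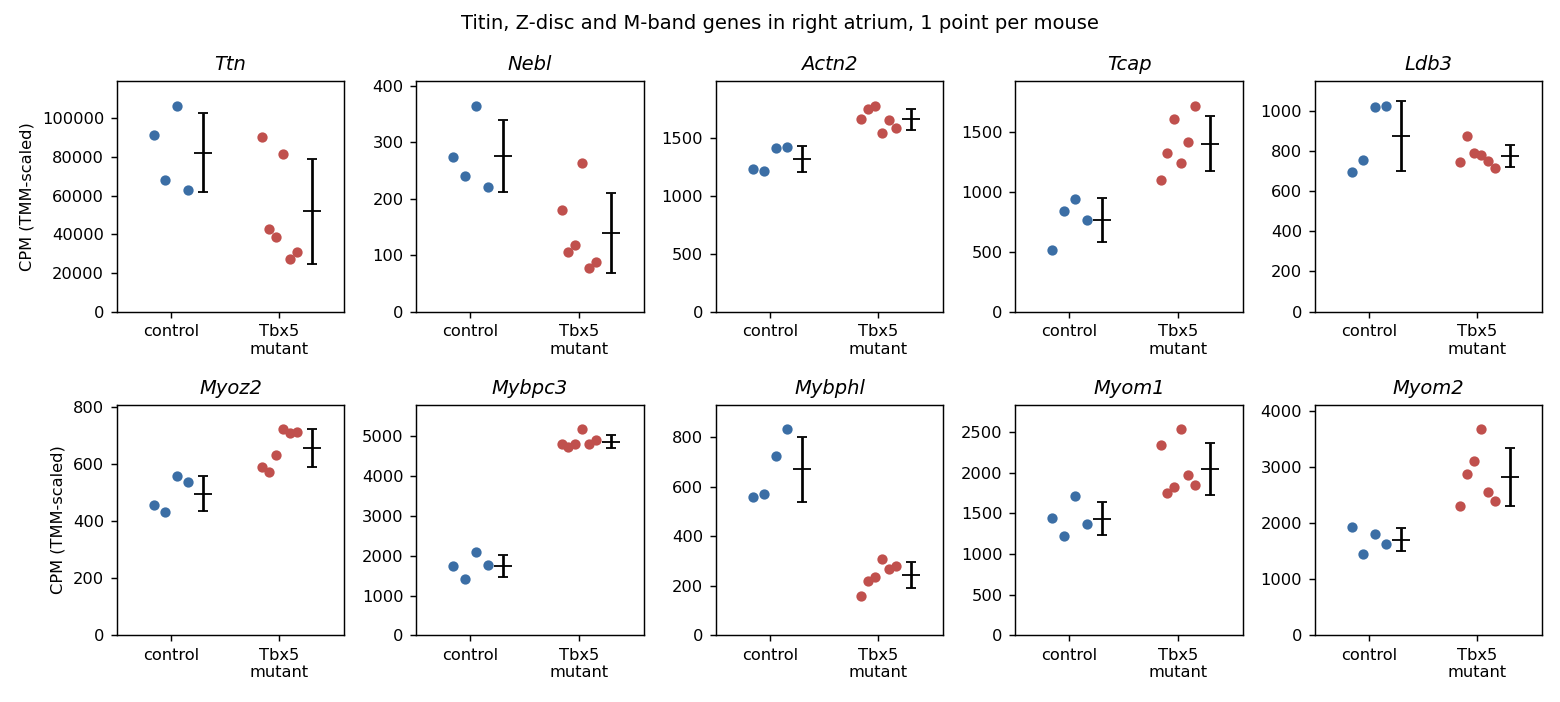
Level of each of the 10 genes in each mouse, in CPM scaled by TMM on a linear axis from 0. Points are mice, 4 labelled control and 6 labelled Tbx5 mutant, and bars give the mean and 1 SD; Mybpc3 and Mybphl separate the groups in opposite directions, while Ttn and Nebl spread widely among the mutant mice.

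Ttn was the most counted gene in 9 of the 10 libraries, all but mutant M3, where Rn45s was. It took 6.58% to 10.4% of all reads in the control mice and 2.00% to 9.28% in the mutant mice. The lowest share was that of mutant M3, where Rn45s held 38.9% of the reads, and the next lowest was 3.05% in mutant M2. In GENCODE M21 (GRCm38) it occupies bases 76703980 to 76982547 of chromosome 2, reverse strand, and its longest transcript has 347 exons and 106824 bases. Ttn stood at 91145, 68309, 106441 and 63055 CPM in control M1, M2, F1 and F2. In the mutant mice it ranged from 27095 (M2) over a median of 40647 to 90034 CPM (F1). Mutant M2, M3, F2 and F3 lay below every control mouse, whereas F1 and M1, at 90034 and 81572 CPM, lay within the control range. The means were 82237 ± 20225 CPM (SD, n = 4) and 51844 ± 27002 CPM (SD, n = 6). The log2 fold change of -0.67 (SE 0.34) did not pass the test, with an adjusted p of 0.146, and the two-sided exact permutation test over the 210 ways to divide the mice gave p = 0.0952. Left without mutant F1, Ttn had a log2 fold change of -0.89 and an adjusted p of 0.0440. Leaving out the mutant mouse with the highest Ttn level enlarges the fall by construction, so no fall is read from this. Excluding Ttn from the library sizes and the scaling, an alternative chosen after seeing the data, left 2 members called lower and 3 higher.

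Nebulette, the cardiac relative of nebulin that links actin to the Z-disc, fell by 0.99 on the log2 scale (SE 0.29, adjusted p = 0.0183). Nebl lies on chromosome 2 from 17343909 to 17731464, on the reverse strand as Ttn does. It stood at 274, 241, 365 and 220 CPM in control M1, M2, F1 and F2, and in the mutant mice it ranged from 77.3 (M2) over a median of 111 to 264 CPM (M1). Of the 6 mutant mice, 5 lay below every control mouse and M1 lay within the control range (exact permutation p = 0.0286). The means were 275 ± 63.7 CPM (SD, n = 4) and 139 ± 71.1 CPM (SD, n = 6). The call was lost without control F1, the control mouse with the highest value (log2 fold change -0.82, adjusted p = 0.0689), and with the mice labelled male only (-0.84, adjusted p = 0.239).

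Ttn and Nebl were also the members that varied most within the mutant group. Their coefficients of variation were 52.1% and 51.2% there, against 24.6% and 23.2% in the control mice. The highest mutant value was 3.32 times the lowest for Ttn and 3.41 times for Nebl. In the other 8 members the coefficient of variation among mutant mice was between 3.23% (Mybpc3) and 21.3% (Mybphl). The same pair of mutant mice, F1 and M1, held the highest levels of both genes, and M2 and M3 held the lowest.

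The libraries differed in how their gene levels followed transcript length, and this moved with Ttn and Nebl. The Spearman correlation, across 11868 genes, of a library's deviation from the gene means with transcript length was 0.127 to 0.332 in the control mice. It was 0.0104 and 0.0457 in mutant F1 and M1, and between -0.162 and -0.380 in the other 4 mutant mice. Mutant F1 and M1 were thus nearest to the control mice in this measure as in the level of Ttn. With the length trend of each library taken out, the log2 fold change of Ttn was -0.07 (adjusted p = 0.797) and that of Nebl -0.79 (adjusted p = 0.0338). Only 1 tested gene with a known length was longer than Ttn, so the trend at that length rests on few genes. Every control library had a higher correlation with length than every mutant library, so this trend and the labelled group cannot be told apart.

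**Figure D2:**
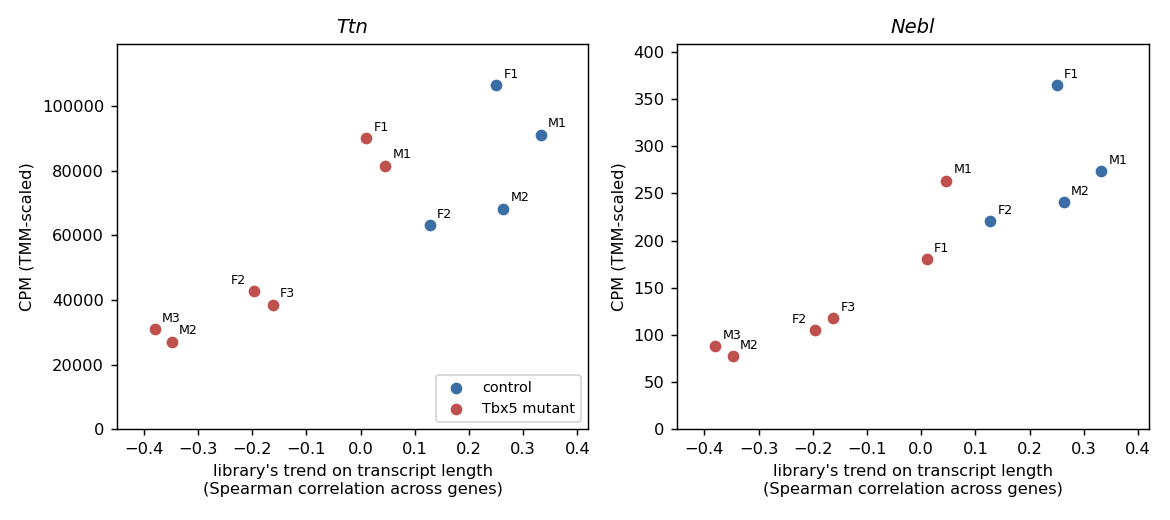
Level of Ttn (left) and Nebl (right) in CPM against the trend on transcript length of the same library, a Spearman correlation across 11868 genes. Each point is a mouse, named by its label; mutant F1 and M1 are the mutant mice nearest to the control mice on both axes, with F1 below every control mouse for Nebl, and mutant M2 and M3 have the lowest values on both.

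Tcap, whose telethonin joins the ends of a pair of titin molecules at the Z-disc, rose 1.83-fold. Its transcript is short, with 2 exons and 948 bases, at bases 98383811 to 98384953 of chromosome 11, forward strand. It stood at 518, 842, 945 and 768 CPM in control M1, M2, F1 and F2, and in the mutant mice it ranged from 1099 (F1) over a median of 1373 to 1721 CPM (M3). Every mutant mouse lay above every control mouse (exact permutation p = 0.00952, the smallest that 4 mice against 6 can give). The log2 fold change was 0.87 (SE 0.17, adjusted p = 0.00197), and 0.60 (adjusted p = 0.00658) with the length trend removed. With the replicate number as a block and the length trend removed it was 0.54 (adjusted p = 0.0392), under the fold threshold, so the call was lost. Mutant M3 and F3 have no control mouse of the same number and add nothing to that difference. Among the mutant mice the order of Tcap was nearly the reverse of that of Ttn, with F1 lowest for Tcap and highest for Ttn.

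Actn2 and Myoz2 passed the adjusted p threshold but changed less than 1.5-fold. Actn2 was at 1234, 1213, 1411 and 1423 CPM in control M1, M2, F1 and F2 and at 1538, 1657 and 1777 CPM as the lowest, median and highest of the mutant mice. Its groups did not overlap (exact permutation p = 0.00952), with a log2 fold change of 0.33 (SE 0.10, adjusted p = 0.0263), which is 1.26-fold. Myoz2, a calcineurin-binding protein of the Z-disc, was at 455, 433, 557 and 537 CPM in control M1, M2, F1 and F2 and at 571, 670 and 720 CPM as the lowest, median and highest of the mutant mice. Its groups did not overlap either (exact permutation p = 0.00952), with a log2 fold change of 0.40 (SE 0.11, adjusted p = 0.0153), which is 1.32-fold. The threshold was missed without control M1 or M2 for Actn2 (adjusted p = 0.0640 and 0.0750) and without control M2 for Myoz2 (adjusted p = 0.0545). In the mice labelled female only, the log2 fold change of Myoz2 was 0.13 (adjusted p = 0.437), and in those labelled male only it was 0.69 (adjusted p = 0.0232), which is a call. By Xist and Ddx3y, both of these fits compare mice of opposite sex. With the replicate number as a block, the adjusted p was 0.0708 for Actn2 and 0.0791 for Myoz2. Mutant M3 and F3 have no control mouse of the same number, so they add nothing to the difference in that fit. By Xist and Ddx3y, each block with both groups also joins mice of opposite sex.

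Ldb3, which encodes a PDZ-LIM protein that binds alpha-actinin, gave no difference past the test. It stood at 695, 757, 1019 and 1024 CPM in control M1, M2, F1 and F2 and at 715, 765 and 875 CPM as the lowest, median and highest of the mutant mice. All 6 mutant mice lay within the control range. The log2 fold change was -0.17 (SE 0.13, adjusted p = 0.316, exact permutation p = 0.238). With the mice labelled male only it was 0.045 (adjusted p = 0.871), so that its direction turned.

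Among thick filament proteins, Mybpc3 rose 2.78-fold. This gene, at bases 91118144 to 91136516 of chromosome 2, forward strand, with 35 exons in 4163 bases, encodes cardiac myosin binding protein C, which regulates crossbridge cycling. It stood at 1730, 1417, 2086 and 1752 CPM in control M1, M2, F1 and F2. The mutant mice were narrowly spread, from 4734 over a median of 4789 to 5162 CPM, all above 2 times the highest control value. The means were 1747 ± 273 CPM (SD, n = 4) and 4857 ± 157 CPM (SD, n = 6). The log2 fold change was 1.48 (SE 0.13, adjusted p = 3.89e-06), and 1.52 with the length trend removed. Mybpc3 was called higher under each of the 28 alternatives run for single genes, with log2 fold changes from 1.31 to 1.65.

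Mybphl moved the other way and fell 2.75-fold. This paralogue with fewer domains occupies bases 108364911 to 108380057 of chromosome 3, forward strand, with 9 exons in 1276 bases. It stood at 558, 572, 724 and 831 CPM in control M1, M2, F1 and F2. In the mutant mice it ranged from 159 (F1) over a median of 250.3 to 307 CPM (M1), all below every control mouse. The means were 671 ± 131 CPM (SD, n = 4) and 244 ± 52.0 CPM (SD, n = 6), with a log2 fold change of -1.46 (SE 0.17, adjusted p = 3.36e-05). Mybphl was called lower under each of the 28 alternatives, with log2 fold changes from -1.92 to -0.99. The noncoding gene Gm12522 overlaps 6.97% of the exon bases of Mybphl on the opposite strand and also fell, by 1.43 on the log2 scale, on 21 to 102 reads. Whether counting used strand is not stated, so reads of the shared stretch cannot be told apart.

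The ratio of Mybphl to Mybpc3 reads within a library does not depend on scaling between libraries. It was 0.322, 0.403, 0.347 and 0.475 in control M1, M2, F1 and F2. In the mutant mice it ranged from 0.0332 (F1) over a median of 0.0523 to 0.0594 (M1), so the groups did not overlap. The mean log2 ratio differed by -2.96, a 7.77-fold shift between the paralogues (two-sided exact permutation p = 0.00952, 0.0286 after Benjamini-Hochberg adjustment over 3 ratios). Both members were known to differ before this ratio was taken.

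**Figure D3:**
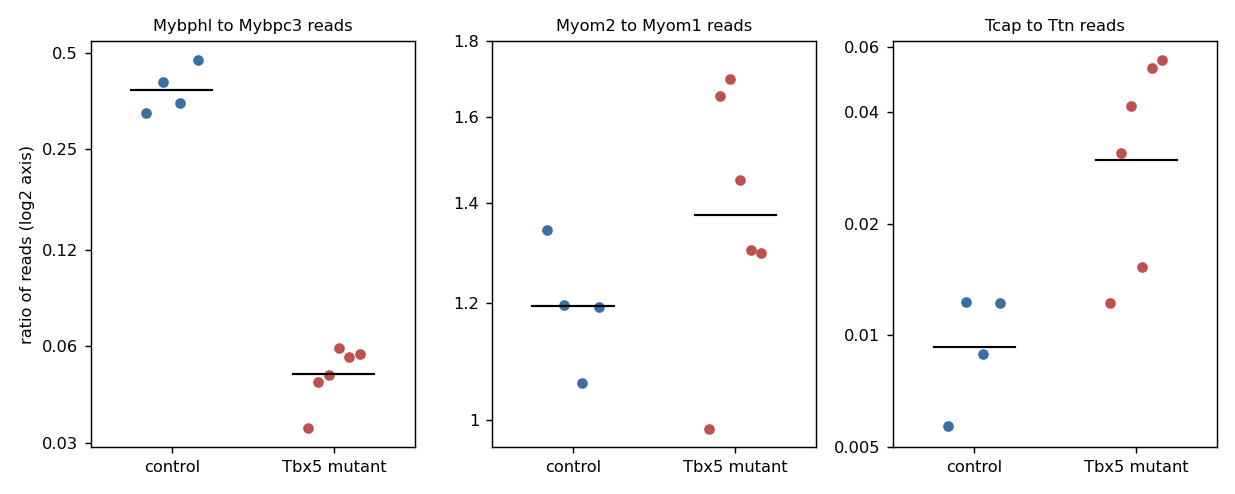
Ratios of reads between pairs of the genes within each library, on log2 axes; points are mice and horizontal lines are the means of the log2 ratios. The Mybphl to Mybpc3 ratio lies at 0.322 to 0.475 in the control mice and at 0.0332 to 0.0594 in the mutant mice, whereas the ranges overlap for Myom2 to Myom1 and, at a single mutant mouse, for Tcap to Ttn.

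At the M-band both myomesins were higher in the mice labelled Tbx5 mutant, and Myom2 was called. Myom2 stood at 1938, 1460, 1815 and 1628 CPM in control M1, M2, F1 and F2 and at 2308, 2723 and 3673 CPM as the lowest, median and highest of the mutant mice. Every mutant mouse lay above every control mouse, with a 1.65-fold rise (log2 fold change 0.72, SE 0.15, adjusted p = 0.00295). In the males by label alone, the log2 fold change was 0.76 with an adjusted p of 0.0844. Myom1 stood at 1443, 1220, 1713 and 1365 CPM in control M1, M2, F1 and F2 and at 1746, 1907 and 2530 CPM as the lowest, median and highest of the mutant mice. Its groups did not overlap either, but the 1.42-fold difference lay under the fold threshold (log2 fold change 0.51, SE 0.14, adjusted p = 0.0148). Without control M2 its adjusted p was 0.0507. With the length trend removed it was 0.63 (adjusted p = 0.00233), which is a call. Exons of Myom1 share 1.98% of their bases with Myl12a on the opposite strand, which rose by 0.60 on the log2 scale.

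The ratio of Myom2 to Myom1 reads was 1.06 to 1.34 in the control mice and 0.986, 1.38 and 1.70 as the lowest, median and highest of the mutant mice. Its mean log2 difference of 0.20 was within the spread (exact permutation p = 0.21). Without mutant F1, where the ratio was lowest, the difference was 0.30 (exact permutation p = 0.0476, not adjusted). Leaving out the mouse with the lowest ratio enlarges the difference by construction, so no shift is read from this. The ratio of Tcap to Ttn reads was 0.00568 to 0.0123 in the control mice and 0.0122, 0.0363 and 0.0554 as the lowest, median and highest of the mutant mice. It differed by 1.68 on the log2 scale, or 3.19-fold (exact permutation p = 0.0190, adjusted over 3 ratios 0.0286). Only mutant F1 lay within the control range. The longest transcripts of Ttn and Tcap differ widely in length (106824 and 948 bases). In the main fit the log2 fold changes of Ttn and Tcap were -0.67 and 0.87. With the length trend removed they were -0.07 and 0.60, so both lay nearer to 0. The ratio itself was not tested with that trend removed.

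**Figure D4:**
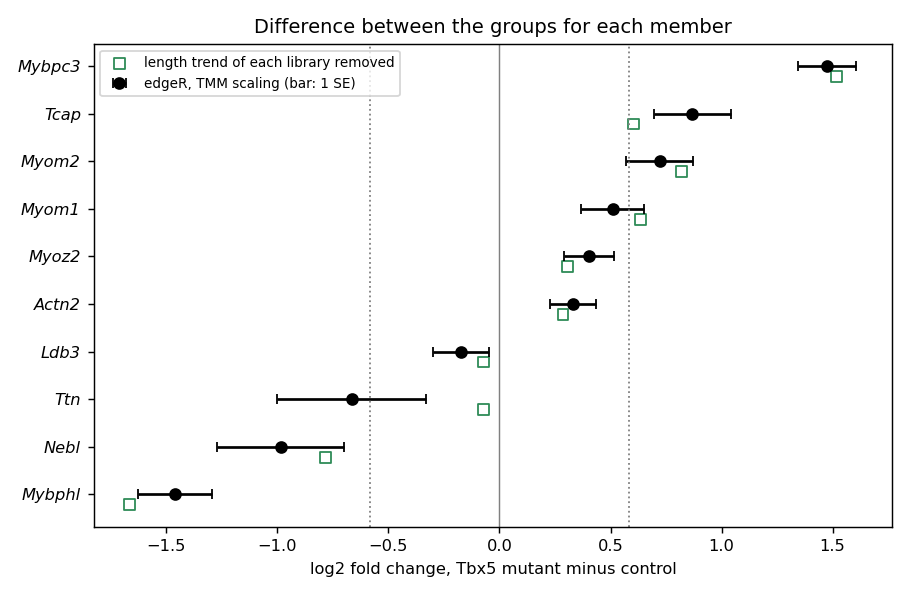
Log2 fold change of each gene, Tbx5 mutant minus control, from edgeR with TMM scaling (filled circles, bars of 1 SE) and after the length trend of each library was taken out (open squares). Dotted lines mark a 1.5-fold difference. The square for Ttn lies at -0.07, while those for Mybpc3 and Mybphl lie farther from 0 than their circles.

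Per kilobase of the longest transcript, the order of the levels changed between the groups. Tcap was first in both, at 810 CPM per kilobase in the control mice and 1480 in the mutant mice. Ttn was the second in the control mice (770) and the fifth in the mutant mice (485), or the third there when all annotated exons set the length. Mybphl went from the third place (526) to the eighth (191), and Mybpc3 from the fifth (420) to the second (1167). Nebl was last in both groups, at 34.0 and 17.2 CPM per kilobase. Tcap and Ttn, neighbours in the control order, differed by less than their spread there, with ranges of 546 to 997 and 590 to 996. In the mutant mice the range of Tcap, 1160 to 1816, overlapped that of Mybpc3, 1137 to 1240.

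The labelled sexes were compared in a fit with an interaction of genotype and sex. None of the 10 members had an adjusted p under 0.05 for it in edgeR, against 0.29% of all tested genes, and 3 had an unadjusted p under 0.05 in edgeR and 3 in limma. Mybphl fell by 0.99 on the log2 scale in the mice labelled male and by 1.92 in those labelled female (interaction adjusted p = 0.13). With control sex labels exchanged, as Xist and Ddx3y would have them, its interaction was 0.011 (adjusted p = 0.996). The interaction of Myoz2 went from 0.56 (adjusted p = 0.202) to -0.047 (adjusted p = 0.975) with that exchange. The single unadjusted p under 0.05 was then that of Ldb3 (0.00526, adjusted p = 0.332).

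Around these genes stand other components of the same structures, taken as lists from knowledge of the sarcomere and chosen with earlier results of these data known. Of 30 other Z-disc genes, 28 were tested, and 2 were called lower and 7 higher, with a median log2 fold change of 0.22. Of 12 other M-band and thick filament genes, 9 were tested, with 0 called lower (2 lower by adjusted p alone), 1 higher and a median of -0.28. Of 13 genes whose products bind titin or act on it, all were tested, with 0 called lower (1 lower by adjusted p alone), 3 higher and a median of 0.18. Ankrd2, among these 3, passed the filter on low counts only through the mutant mice. In all, 2 of 50 tested genes were lower and 11 higher, at a median of 0.094, beside a background of 7.16% lower and 8.5% higher.

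The largest fall among the other Z-disc genes was that of Cmya5 (myospryn, which binds alpha-actinin and desmin), from 2151 ± 617 CPM (SD, n = 4) to 309 ± 174 CPM (SD, n = 6). Its log2 fold change was -2.80 (SE 0.34, adjusted p = 4.95e-05), and the groups did not overlap. Neb, nebulin itself, fell from 78.3 ± 26.1 CPM to 25.1 ± 14.6 CPM (log2 fold change -1.63, adjusted p = 0.00286), with mutant M1 within the control range. Both have long transcripts, 11850 bases for Cmya5 and 22489 for Neb. With the length trend removed, the log2 fold change was -2.51 for Cmya5 (adjusted p = 3.71e-05) and -1.20 for Neb (adjusted p = 0.00467). The 4 largest rises were those of Pdlim3 (an alpha-actinin-binding LIM protein), Xirp1 (an actin-binding protein of the intercalated disc), Lmcd1 and Csrp3 (muscle LIM protein). Pdlim3 went from 126 to 275 CPM, Xirp1 from 139 to 297, Lmcd1 from 9.40 to 19.96 and Csrp3 from 1013 to 2050. Csrp3 rose by 1.02 on the log2 scale (SE 0.13, adjusted p = 0.000102). The other 3 calls were Des (desmin), Pdlim1 and Actn1, named only to complete the count of 7. Xirp2, with a longest transcript of 11979 bases, resembled Ttn in its spread and was singled out after its values were seen. It stood at 656 and 535 CPM in mutant F1 and M1 and 220 to 239 CPM in the other 4, against 499 to 852 CPM in the control mice (adjusted p = 0.0531). Cmya5, Neb and Nexn also had their highest mutant values in F1 and M1.

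Among the M-band and thick filament genes, Mybpc2, the fast skeletal paralogue of Mybpc3, was low and rose from 11.4 to 21.1 CPM (log2 fold change 0.87, adjusted p = 0.0101). Of the other members of that family, Mybpc1 had 0 reads in every library and Mybph 0 to 6, too few to be tested. The 2 most abundant genes of that list by mean CPM over all 10 libraries were Ckm, the muscle creatine kinase found at the M-band, and Smyd1, a methyltransferase needed for myosin assembly. Ckm stood at 917 ± 200.5 CPM (SD, n = 4) and 1372 ± 145 CPM (SD, n = 6), without overlap, and its 1.496-fold difference (log2 fold change 0.58, adjusted p = 0.00796) lay just under the fold threshold. Smyd1 stood at 348 ± 27.1 CPM (SD, n = 4) and 444 ± 37.6 CPM (SD, n = 6), also without overlap (log2 fold change 0.35, adjusted p = 0.0140). In the females by label alone the adjusted p was 0.137 for Ckm, 0.303 for Smyd1 and 0.0612 for Mybpc2, whose call was thus lost (log2 fold change 0.47). In the same list Obsl1 and Unc45b, named after their values were seen, fell without overlap and under 1.5-fold, by 0.50 (adjusted p = 0.00338) and by 0.46 on the log2 scale (adjusted p = 0.00569).

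Among titin's partners, Ankrd1 and Ankrd23 of the muscle ankyrin repeat family, which binds titin's spring region, were called higher. Ankrd2 of the same family was called too, on few reads. Ankrd1 rose from 2575 ± 549 CPM (SD, n = 4) to 8777 ± 774 CPM (SD, n = 6), a log2 fold change of 1.77 (SE 0.16, adjusted p = 5.54e-06), without overlap. Ankrd23 rose from 43.1 to 105 CPM (log2 fold change 1.27, SE 0.31, adjusted p = 0.00789). Its log2 fold change was 2.06 (adjusted p = 0.0191) in the mice labelled male only and 0.56 (adjusted p = 0.0365) in those labelled female only, which is under the fold threshold. Ankrd2 had 5, 0, 0 and 0 reads in control M1, M2, F1 and F2 and 2 to 34 in the mutant mice, so that its fitted fold change is poorly determined (adjusted p = 0.0214). It passed the filter on low counts only through the mutant mice, so its direction was set by the filter. Its call is therefore no support for a rise of the family. Without control M2, F1 or F2 its adjusted p was 0.0546 to 0.0592. Rbm20, the splicing factor that sets which spring exons titin keeps, stood at 574 and 482 CPM (log2 fold change -0.25, adjusted p = 0.0751; chosen after its values were seen). Gene counts do not show which titin exons were used.

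**Figure D5:**
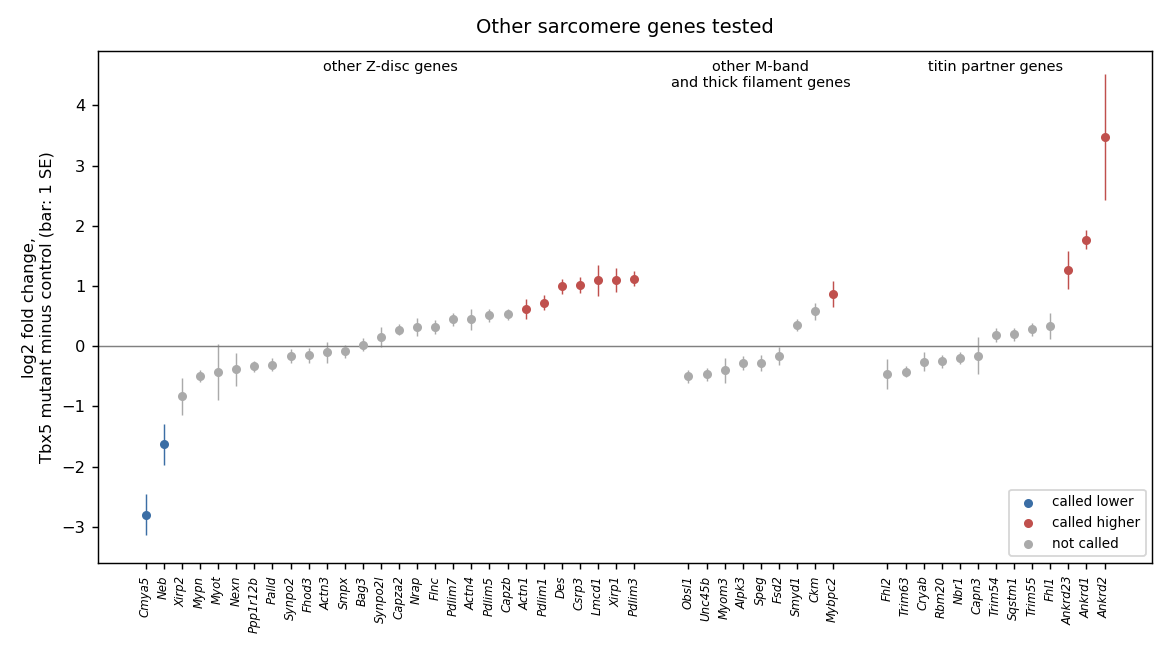
Log2 fold change, Tbx5 mutant minus control, of the 50 tested genes of the other Z-disc, M-band and thick filament, and titin partner lists, with bars of 1 SE. Blue points were called lower (2), red points higher (11) and grey points were not called. Cmya5 lies lowest, and the 3 ankyrin repeat genes lie highest among titin's partners. Of these, Ankrd2 passed the filter on low counts only through the mutant mice.

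Markers of other cell types moved with the labels too. The summed level of 10 cardiomyocyte markers was 77341 to 91799 CPM in the control mice and 66324 to 80017 CPM in the mutant mice, with 3 called lower and 4 higher. Those lower were Nppa, Myl7 and Ryr2, and those higher Actc1, Tnnt2, Tnnc1 and Pln. Nppa (means of 26779 and 17083 CPM in control and mutant mice) and Myh6 (24059 and 25766 CPM) weigh most in this sum. Summed levels were higher in the mutant mice, without overlap, for 7 fibroblast markers (3776 to 5000 against 6192 to 9412 CPM, 3 called) and 5 smooth muscle markers (194 to 252 against 259 to 666 CPM, 2 called). The 3 called fibroblast markers were the collagen genes Col1a1, Col1a2 and Col3a1, whereas Pdgfra was lower (206 and 156 CPM, log2 fold change -0.40, adjusted p = 0.0152) and Dcn stood at 1882 and 1867 CPM (adjusted p = 0.952). The 2 called smooth muscle markers were Acta2 and Tagln. Of the others, Cnn1 stood at 21.7 and 39.8 CPM (adjusted p = 0.0573) and Myh11 at 9.91 and 11.4 CPM (adjusted p = 0.552). Smtn had the lower mean in the mutant mice (101 and 92.3 CPM, adjusted p = 0.435). Summed levels did not overlap either for 6 leukocyte markers (140 to 198 against 227 to 320 CPM, 4 of the 4 tested called). Of 6 endothelial markers 1 was called (1765 to 2733 against 2688 to 3544 CPM), and of 4 adipocyte markers none was tested (0.470 to 4.13 against 0 to 20.8 CPM). The part of these in the members' differences was not tested.

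Of 5 ventricular muscle markers, Myl2 and Myl3 were called higher (summed level 193 to 299 against 789 to 1587 CPM), and Irx4 had at most 3 reads in every library. Hey2 was not called and had the lower mean in the mutant mice (5.10 and 4.17 CPM, adjusted p = 0.292). Myh7 was not called either (adjusted p = 0.208). It had a mean of 183 CPM in the control mice and 346 CPM in the mutant mice (log2 fold change 0.92). The mutant mice had a median of 184 CPM and a highest value of 919 CPM. Of 12 skeletal muscle markers, Acta1 was called higher and Atp2a1 lower (18.8 to 28.0 against 21.9 to 28.0 CPM). The defining genes Myh1, Myh2, Myh4 and Tnnc2 had at most 3 reads in every library. Acta1 had 0 to 6 reads in the control mice and 26 to 54 in the mutant mice. As with Ankrd2, it passed the filter on low counts only through the mutant mice, so its direction was set by the filter. Pvalb had 6 to 44 reads over all libraries. The part of either list in the members' differences was not tested.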

How the data were processed

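RNA-seq of right atrium was available for 10 mice, grouped by their labels. The authors deposited 1 table, with the count of reads per gene in each library, the signal made by dividing the counts by 1 size factor per library, the mean of that signal, and their own DESeq2 comparison, as a log2 fold change, a Wald score, p-values and a linear fold ratio. That comparison was not used. The submitters' processing notes name FastQC, TopHat2 2.0.11, featureCounts, DESeq2 and mm10. The labels describe both an mRNA kit and ribosomal RNA-depleted total RNA, and globin RNA removal. How these affect the counts is not known.

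The counts went through edgeR 4.0.16 (R 4.3.3): expression filter, TMM scaling and quasi-likelihood test, with all 10 libraries, no covariates and a prior count of 0.125. Adjusted p-values are Benjamini-Hochberg values over all 13084 tested genes. A call needed an adjusted p under 0.05, a fold change over 1.5 and a mean control signal over 1, the thresholds that the study gives for coding genes of left atrium. SE is the size of the log2 fold change divided by the root of the F statistic. Single values were compared by two-sided exact permutation over 210 divisions of the mice. Reads carry no molecular identifiers. Lengths and coordinates came from GENCODE M21 (20953 of 23337 genes matched by symbol, 11868 of those tested), promoters from RefSeq GRCm38.p6. Trends on length or GC content were removed with lowess curves (span 0.4) entered as offsets. Alternatives varied scaling, filter, test (DESeq2 1.42.0, limma 3.58.1), prior count, covariates, libraries and thresholds. The fit was tested on simulated data. Mice with the same number in both groups are different animals, and their deviations from the group means did not correlate (mean -0.00712 over 4 pairs, against 0.00129 over 20 other pairs).

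The members and lists were chosen with earlier results of these data known. One listed gene is not reported here and enters no count of its list. Named from the lists were up to 4 called genes lower and 4 higher with the largest log2 fold change, and, where fewer than 2 were called, the 2 most abundant.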

Additional observations from a re-analysis of the deposited data

Results flagged for a closer look

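Among 52 groups of values, 3 had a mouse far from the others of its group, where chance would give about 2.6 (1 in 20). Mybpc3 was at 5162 CPM in mutant M1 against 4886 CPM in the next mouse of its group, a gap that is small beside the difference from the control mice. Lmcd1 was at 36.8 CPM in mutant M2, which is 253 reads, against 21.4 CPM in the next. Ankrd2 was at 0.713 CPM in control M1, which is 5 reads, against 0 in the other 3 control mice.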

How the results depend on the processing

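The numbers of members called, 2 lower and 3 higher, stayed within 1.5 times under changes of scaling, filter, test, prior count, covariates, and length or GC trend. Members called lower numbered 1 with the mice labelled male only, at an adjusted p under 0.01 and at a fold change over 2, and 1 to 3 with each library left out in turn. Members called higher numbered 1 at a fold change over 2, 6 with no fold change threshold, and 3 to 4 with each library left out. The other sarcomere genes called lower, 2, numbered 4 with the mice labelled female only and 8 with no fold change threshold, and those called higher, 11, numbered 7 at a fold change over 2 and 17 with none. Over all genes, 937 lower and 1112 higher became 611 and 686 with a mean count of at least 50, 367 and 539 at a fold change over 2, and 1967 and 2129 with no fold change threshold. A fold threshold changes these counts by construction, and fewer genes are tested at the higher count. For the rest the cause was not tested.

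With the replicate number as a block, 2 members were called lower and 3 higher, and 903 and 1054 of all genes. The block takes mutant M3 and F3 out of the difference and pairs mice of opposite sex by Xist and Ddx3y. Beside Actn2 and Myoz2, no member crossed an adjusted p of 0.05 under the block. Ttn stood at -0.57 with the block and at 0.0024 with the block and the length trend removed, which reversed its sign. In that last fit Tcap was no longer called and Myom1 was (0.70, adjusted p = 0.00522), so the 3 members called higher were not all the same. Ldb3 was reversed at 0.045 with the mice labelled male only. The log2 ratio of Mybphl to Mybpc3 differed by -2.65 in the mice labelled male, by -3.26 in those labelled female, and by -3.04 to -2.84 with each library left out. That of Myom2 to Myom1 went from 0.14 to 0.30 and that of Tcap to Ttn from 1.44 to 1.93 with each library left out.

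Over 23 named genes with up to 28 alternatives each, 605 fits gave the same direction and the same side of the 0.05 threshold, 31 lost it, 1 passed it (Ttn without mutant F1) and the 2 above reversed. Mutant F1 had the highest Ttn level of the mutant mice, so leaving it out enlarges the fall of Ttn by construction. Without scaling beyond the library total, the adjusted p was 0.356 for Actn2, 0.227 for Myoz2 and 0.126 for Myom1. The members had at least 325 reads in each library, so depth limits only the lowest of the other genes, such as Ankrd2.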
